A study of Mus musculus with 6 samples.

Results

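The transcripts described here are 10 marker genes of hepatic stellate cells and of the myofibroblasts that arise from them. They were chosen by symbol, with earlier results of these data known, from the 29734 genes of the deposited table. They were taken in 3 roles: 6 markers of quiescent stellate cells (Lrat, Reln, Ngfr, Pth1r, Ecm1 and Hand2), 3 general mesenchymal markers that activated cells also carry (Des, Pdgfra and Pdgfrb), and Acta2, the marker of contractile myofibroblasts. Poly(A)-selected RNA of whole liver was sequenced in 3 Prdx1 C52S libraries (replicates 1, 2 and 4) and 3 WT libraries (replicates 6, 8 and 9). In the Prdx1 C52S mice serine stands in place of cysteine 52 of peroxiredoxin 1. The WT mice have the unaltered gene. Peroxiredoxin 1 reduces hydrogen peroxide through that cysteine. All donors were males, aged 8 weeks when a Western diet began, a feed rich in fat that produces steatohepatitis, and ate it for 20 weeks. The labels do not say whether the allele was on both chromosomes. No group on a control diet was analysed here, so that every level below belongs to a liver on the Western diet.

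Stellate cells lie between hepatocytes and the sinusoidal endothelium and store most of the vitamin A of the body as retinyl esters in lipid droplets. In injured liver they lose these droplets, proliferate in response to platelet-derived growth factors, and turn into myofibroblasts that contract and lay down collagen. Because quiescent and activated cells carry different transcripts, the comparison asked whether the markers of the 2 states differed in opposite directions between the genotypes.

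Of the 6 quiescent markers, 5 (Lrat, Reln, Ngfr, Pth1r and Ecm1) had higher mean levels in Prdx1 C52S livers, at between 1.22 and 1.74 times the WT mean. The transcription factor Hand2 and the 3 mesenchymal markers had lower mean levels, at between 0.276 and 0.584 times the WT mean, and the mean of Acta2 was 1.07 times that of WT. Without WT 8, a library that stood apart, the FPKM ratio was 1.01 for Reln, 1.09 for Lrat and 0.454 for Pdgfra, and that of Acta2 turned to 0.94. None of the 10 passed an adjusted p of 0.05 with all 6 libraries (edgeR quasi-likelihood test, Benjamini-Hochberg adjustment, adjusted p from 0.0971 to 0.551), and neither did any other gene of 18931 tested (0.0%). At an unadjusted p under 0.05, 3 members were higher (Ngfr, Pth1r and Ecm1) and 3 lower (Hand2, Pdgfra and Pdgfrb), beside 11.5% and 14.8% of all genes tested. In edgeR without WT 8, Ngfr and Ecm1 passed as higher and Pdgfra as lower, beside 2.7% and 1.94% of all genes.

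Levels are given in FPKM, fragments scaled to transcript length and sequencing depth, which allows genes to be set side by side. Positive log2 fold changes mean a higher level in Prdx1 C52S. They were fitted by edgeR after TMM scaling, a correction for library composition, and each SE is the absolute fold change over the root of its F statistic. With library totals alone in place of TMM the median log2 fold change of all genes was -0.34, against -0.03 with TMM, so that members with positive values moved toward 0 and those with negative values away from it. Library totals were 60.3 to 76.2 M estimated counts, worth about 4 per sequenced fragment. The least covered member value, Ngfr in WT 8, rests on 225 estimated counts, about 56.3 fragments, with a counting error of about 13.3%. All 10 genes were detected in all 6 libraries and passed the filter on low counts. The labels number the libraries and do not say that each came from a different mouse, so that p-values measure the spread between these libraries, which may be technical.

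The 250 bases upstream of the start site are shown for a member of each role, since the roles went different ways: Lrat for the quiescent markers, Pdgfra for the mesenchymal markers and Acta2. They come from RefSeq on GRCm38.p6, at chr3:82903975-82904224 (minus strand), chr5:75152001-75152250 (plus strand) and chr19:34255374-34255623 (minus strand). They run 5′ to 3′ on the strand of the gene, with matches to the motifs named next in capitals.
Lrat: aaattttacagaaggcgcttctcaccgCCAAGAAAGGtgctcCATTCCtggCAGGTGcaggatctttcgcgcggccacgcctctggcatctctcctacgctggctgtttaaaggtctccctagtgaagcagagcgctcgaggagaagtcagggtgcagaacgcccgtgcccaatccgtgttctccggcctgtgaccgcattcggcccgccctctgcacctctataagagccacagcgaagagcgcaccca
Pdgfra: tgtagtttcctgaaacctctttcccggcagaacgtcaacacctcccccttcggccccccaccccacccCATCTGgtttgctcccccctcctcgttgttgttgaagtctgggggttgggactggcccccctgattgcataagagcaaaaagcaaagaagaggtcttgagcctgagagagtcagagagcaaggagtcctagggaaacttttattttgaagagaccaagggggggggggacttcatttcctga
Acta2: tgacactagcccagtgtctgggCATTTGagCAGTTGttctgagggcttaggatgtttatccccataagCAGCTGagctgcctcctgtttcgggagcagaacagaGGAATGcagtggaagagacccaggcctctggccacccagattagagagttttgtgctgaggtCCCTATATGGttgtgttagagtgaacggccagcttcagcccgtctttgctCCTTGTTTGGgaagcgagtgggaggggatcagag
The capitals mark CArG-like boxes (the element of serum response factor, here with up to 1 of its 6 central bases G or C), the TEAD element GGAATG and the E-box CANNTG, searched on both strands. The Acta2 window holds 2 CArG-like boxes, which begin 84 and 34 bases before the start site, 1 TEAD element and 3 E-boxes. The Lrat window holds 1 CArG-like box, 1 TEAD element and 1 E-box, and the Pdgfra window 1 E-box alone. Among 32851 promoter windows of the same length, 8.59% held a CArG-like box, 12.6% a TEAD element and 66.2% an E-box. The CArG-like form was added after the Acta2 sequence was seen, because its boxes do not have the strict CArG form, which 1.47% of windows and none of the 9 members with a RefSeq entry held. The AP-1 element TGANTCA, in 6.75% of windows, was found in Ecm1 only among these 9. These matches describe the letters and say nothing about binding in these livers.

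Ngfr encodes the p75 neurotrophin receptor, which stellate cells carry in the mouse liver and nerve-supporting cells elsewhere (chromosome 11, 95568818 to 95587735, minus strand). It was at 2.15, 2.17 and 1.87 FPKM in Prdx1 C52S 1, 2 and 4, against 1.39, 0.786 and 1.38 FPKM in WT 6, 8 and 9. Every Prdx1 C52S library lay above every WT library. Its mean was 2.06 ± 0.164 FPKM in Prdx1 C52S and 1.19 ± 0.346 FPKM in WT (SD, n = 3 each), a log2 fold change of 1.05 in edgeR (SE 0.31, adjusted p = 0.109). Leaving out WT 8 gave 0.77 in edgeR (SE 0.16, adjusted p = 0.0436).

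Ecm1, extracellular matrix protein 1, keeps latent TGF-beta inactive in the mouse liver and is also made by hepatocytes (chromosome 3, 95734147 to 95739569, minus strand). It was the most abundant of the 10, with 37.4, 40.8 and 38.4 FPKM in Prdx1 C52S 1, 2 and 4 and 32.7, 17.6 and 25.8 FPKM in WT 6, 8 and 9. The groups did not overlap, and the coefficient of variation was 4.43% in Prdx1 C52S, against 29.8% in WT. For Ecm1 edgeR gave a log2 fold change of 0.87 (SE 0.28, adjusted p = 0.12), or 0.60 without WT 8 (SE 0.12, adjusted p = 0.0368).

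Pth1r, the receptor of parathyroid hormone and its related peptide, is on chromosome 9 (110722085 to 110747145, minus strand). Its levels were 3.6, 4.1 and 3.47 FPKM in Prdx1 C52S 1, 2 and 4 and 3.03, 2.69 and 3.1 FPKM in WT 6, 8 and 9. The groups did not overlap, and the WT coefficient of variation, 7.5%, was the lowest of the 10 members. By edgeR, Pth1r had a log2 fold change of 0.61 (SE 0.17, adjusted p = 0.106), or 0.47 without WT 8 (adjusted p = 0.0962). The gene overlaps Myl3 on the other strand, which was at no more than 0.031 FPKM.

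Lrat, lecithin retinol acyltransferase, makes the retinyl esters that fill the droplets of stellate cells (chromosome 3, 82892579 to 82903973, minus strand). It was at 8.18, 6.3 and 7.71 FPKM in Prdx1 C52S 1, 2 and 4, against 6.82, 2.88 and 6.71 FPKM in WT 6, 8 and 9. Prdx1 C52S 2 lay below 2 WT libraries on this scale, and WT 8 was far below all others. The log2 fold change of 0.67 (SE 0.38, edgeR adjusted p = 0.31) was 0.32 without WT 8 (SE 0.11, edgeR adjusted p = 0.154). After TMM scaling the lowest Prdx1 C52S value was 41.9 CPM, above the highest WT value of 39.2 CPM.

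Reln encodes reelin, a secreted glycoprotein that stellate cells make in the liver (chromosome 5, 21884454 to 22344702, minus strand). It was at 3.56, 3.22 and 3.51 FPKM in Prdx1 C52S 1, 2 and 4, and WT 6, at 4.16 FPKM, exceeded all of them while WT 8 and WT 9 were at 1.68 and 2.6 FPKM. The Prdx1 C52S libraries were close together (3.43 ± 0.181 FPKM) and the WT libraries were not (2.81 ± 1.26 FPKM, SD, n = 3 each). The log2 fold change of 0.53 (SE 0.36, edgeR adjusted p = 0.384) ran from 0.21 without WT 8 to 0.98 without WT 6.

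Hand2 encodes a basic helix-loop-helix factor that holds stellate cells in a quiescent state (chromosome 8, 57320983 to 57324633, plus strand), and it did not go with the other quiescent markers. It was at 2.33, 2.42 and 2.83 FPKM in Prdx1 C52S 1, 2 and 4 and at 5.98, 5.71 and 3.38 FPKM in WT 6, 8 and 9. Every Prdx1 C52S library lay below every WT library, and the highest WT library was WT 6, not WT 8. Its log2 fold change in edgeR, -0.69 (SE 0.22, adjusted p = 0.12), was also -0.69 without WT 8 (adjusted p = 0.146). Hand2os1, the antisense transcript that overlaps this gene, was at 0.502 to 2.24 FPKM, and whether counting used the strand is not given in the sources used here.

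**Figure D1:**
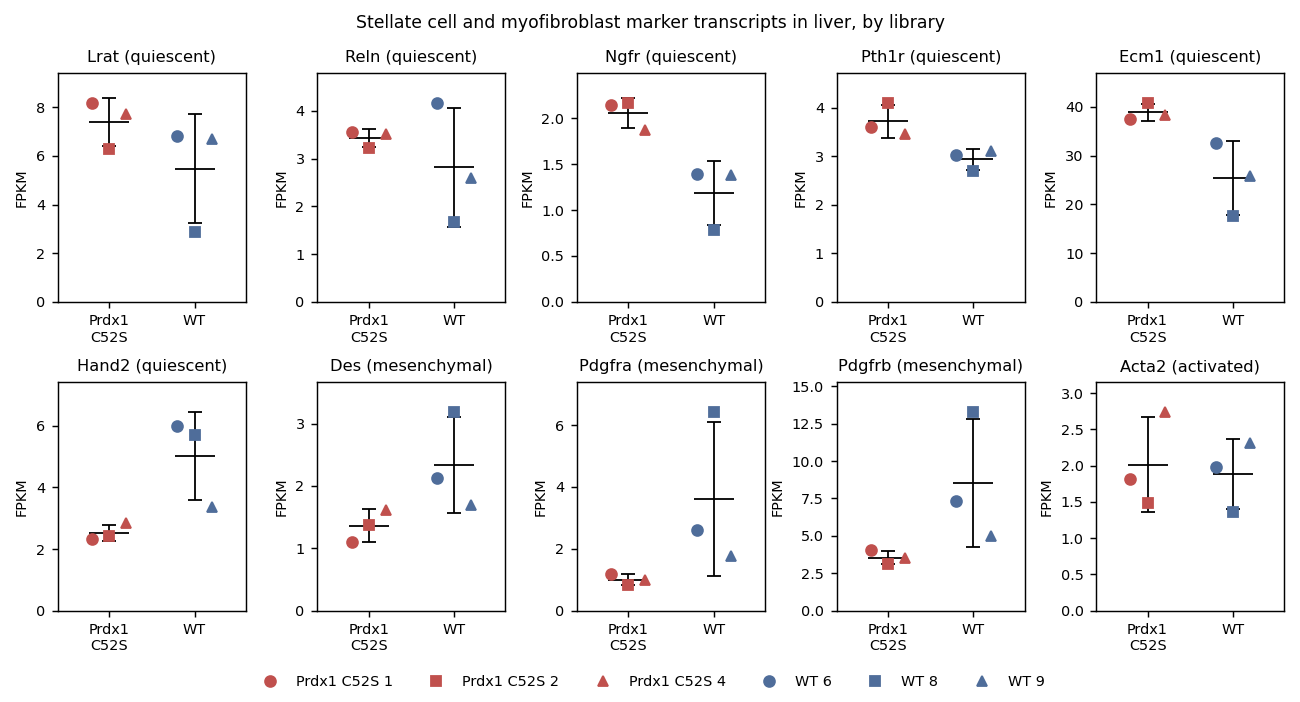
FPKM of each of the 10 marker genes (y axis, from 0) in the 3 Prdx1 C52S libraries and the 3 WT libraries. Points are libraries, horizontal bars are group means and whiskers are ± SD. Ngfr, Pth1r and Ecm1 lie higher in all Prdx1 C52S libraries, Hand2, Des, Pdgfra and Pdgfrb lie lower, Lrat, Reln and Acta2 overlap, and the WT 8 squares are the highest of 6 for Des, Pdgfra and Pdgfrb.

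Pdgfra and Pdgfrb encode the receptors of platelet-derived growth factors, the main mitogens of stellate cells, and Pdgfra is also carried by fibroblasts of the portal tracts. Pdgfra (chromosome 5, 75152292 to 75198215, plus strand) was at 1.17, 0.822 and 0.993 FPKM in Prdx1 C52S 1, 2 and 4, against 2.61, 6.43 and 1.77 FPKM in WT 6, 8 and 9. The groups did not overlap, and WT 8 alone exceeded the sum of the other two WT libraries. At -1.49 in edgeR (SE 0.38, adjusted p = 0.0971), its log2 fold change was the largest of the 10 with all libraries, and at -0.95 it passed without WT 8 (SE 0.19, adjusted p = 0.044).

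Pdgfrb, on chromosome 18, was at 4.03, 3.11 and 3.5 FPKM in Prdx1 C52S 1, 2 and 4 and at 7.3, 13.3 and 4.98 FPKM in WT 6, 8 and 9. Its libraries stood in the same order as those of Pdgfra, and its groups did not overlap either. Pdgfrb had a log2 fold change of -0.93 in edgeR (SE 0.26, adjusted p = 0.106), or -0.60 when WT 8 was left out (SE 0.17, adjusted p = 0.0927). The ratio of Pdgfra to Pdgfrb in FPKM was 0.29, 0.264 and 0.284 for Prdx1 C52S 1, 2 and 4, against 0.358, 0.483 and 0.355 for WT 6, 8 and 9. This ratio too was lower in every Prdx1 C52S library.

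Des encodes desmin, an intermediate filament of muscle and of rodent stellate cells in either state (chromosome 1, 75360329 to 75368579, plus strand). It was at 1.1, 1.37 and 1.62 FPKM in Prdx1 C52S 1, 2 and 4, against 2.13, 3.19 and 1.69 FPKM in WT 6, 8 and 9. Prdx1 C52S 4 and WT 9 nearly met, and after TMM scaling the groups overlapped. With edgeR its log2 fold change came to -0.45 (SE 0.22, adjusted p = 0.243), or -0.29 without WT 8.

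Acta2 encodes smooth muscle alpha-actin, which forms the contractile fibres of myofibroblasts and of vessel walls (chromosome 19, 34241090 to 34255590, minus strand). It was at 1.81, 1.49 and 2.74 FPKM in Prdx1 C52S 1, 2 and 4 and at 1.98, 1.37 and 2.31 FPKM in WT 6, 8 and 9. The groups overlapped throughout, the highest value belonged to Prdx1 C52S 4 and the lowest to WT 8, the library that was highest for the other mesenchymal markers. A log2 fold change of 0.35 in edgeR (SE 0.34, adjusted p = 0.551) was close to its own SE. It was 0.07 without Prdx1 C52S 4 and 0.10 without WT 8, and 0.58 without WT 9. Its coefficient of variation was 32.3% in Prdx1 C52S and 25.3% in WT, wider than the counting error of about 12.7% at its lowest value.

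**Figure D2:**
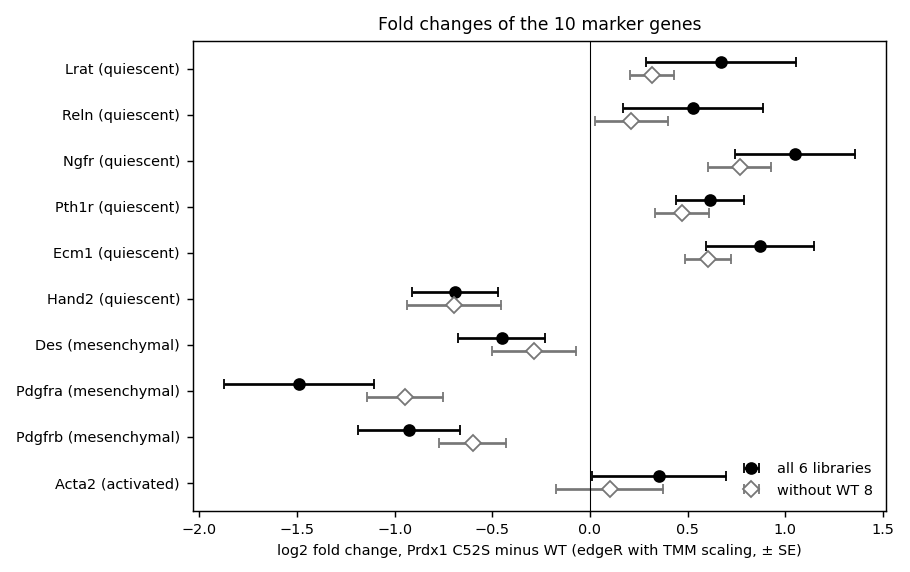
Log2 fold changes of the 10 marker genes (x axis, Prdx1 C52S minus WT, edgeR with TMM scaling) with all 6 libraries (filled circles) and without WT 8 (open diamonds); whiskers are ± SE. All 10 keep the sign of this value without WT 8, and most move toward 0, Pdgfra to -0.95, Lrat to 0.32 and Acta2 to 0.10 (SE 0.27).

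By the overlap of groups in FPKM, 3 members were higher and 4 lower in every Prdx1 C52S library, beside 6.09% of all tested genes that were higher and 36.7% that were lower in this way. After TMM scaling 4 were higher (Lrat, Ngfr, Pth1r and Ecm1) and 3 lower (Hand2, Pdgfra and Pdgfrb), beside 16.9% and 18.0%. The lower members are therefore near the share of all genes on the FPKM scale. Other count models called more of the members on the same 6 libraries. DESeq2 called 6, Ngfr, Ecm1 and Pth1r as higher (7.39% of all genes) and Hand2, Pdgfra and Pdgfrb as lower (9.1%), with adjusted p from 0.00157 for Pdgfra to 0.0414 for Hand2. Voom with library quality weights called Ngfr as higher (5.4% of all genes) and Pdgfra and Pdgfrb as lower (5.31%).

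In Prdx1 C52S livers Ecm1 led, followed by Lrat, each without overlap with the next gene, then by Pth1r (3.72 ± 0.336 FPKM), Pdgfrb (3.55 ± 0.459) and Reln (3.43 ± 0.181), which overlapped. Hand2 followed, below Reln in every library, then Ngfr, Acta2, Des and Pdgfra, each overlapping its neighbour. In WT livers Ecm1 (25.4 ± 7.55 FPKM) was again clear of the rest, and Pdgfrb (8.53 ± 4.29) stood in second place with Lrat (5.47 ± 2.24), Hand2, Pdgfra, Pth1r, Reln, Des, Acta2 and Ngfr below it, each overlapping its neighbour. Without WT 8 the WT mean of Lrat, 6.77 FPKM, was above that of Pdgfrb, 6.14 FPKM, so that the second place of Pdgfrb rests on WT 8. Spread differed between the groups as well. The coefficient of variation of the 10 members had a median of 11.8% in Prdx1 C52S (range 4.43% to 32.3%) and of 31.4% in WT (7.5% to 68.9%), while the median over all tested genes was 13.1% in Prdx1 C52S, against 23% in WT.

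Within each library the quiescent markers were set against the mesenchymal markers, which are not particular to activated cells. They were also set against Acta2, the only activated marker here, and the 2 contrasts gave different pictures. The mean log2(FPKM + 0.1) of the 6 quiescent markers exceeded that of Des, Pdgfra and Pdgfrb by 1.53, 1.68 and 1.49 in Prdx1 C52S 1, 2 and 4. The excess was 0.63 in WT 6 and 0.79 in WT 9, and in WT 8 the quiescent mean lay below the mesenchymal mean, at -0.99. The groups did not overlap, and the difference between them was 1.42, or 0.86 without WT 8. Of its parts, the quiescent mean overlapped, at 2.41, 2.39 and 2.41 for Prdx1 C52S 1, 2 and 4, against 2.46, 1.73 and 2.16 for WT 6, 8 and 9 (difference 0.29). The mesenchymal mean did not overlap, at 0.88, 0.71 and 0.92 for Prdx1 C52S, against 1.83, 2.72 and 1.36 for WT (difference -1.13), on the FPKM scale where 36.7% of all tested genes were lower without overlap. Leaving out Hand2, as a choice made after its values were seen, gave 1.76, 1.89 and 1.66 in Prdx1 C52S, against 0.60, -1.15 and 0.87 in WT. Against Acta2 the same quiescent mean was higher by 1.48, 1.72 and 0.90 in Prdx1 C52S 1, 2 and 4 and by 1.40, 1.18 and 0.89 in WT 6, 8 and 9. These groups overlapped, and the difference of 0.21 lay within the spread of either group (SD 0.42 in Prdx1 C52S and 0.26 in WT, n = 3 each). No test was made on either contrast, since the members were chosen with earlier results of these data known.

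**Figure D3:**
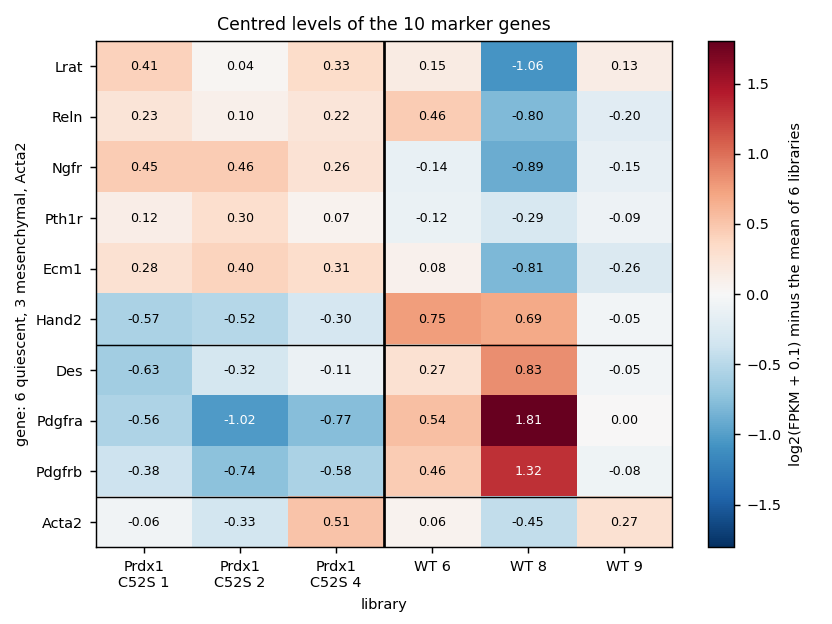
Log2(FPKM + 0.1) of each marker gene minus its mean over the 6 libraries (colour and printed value) by library (x axis); horizontal lines separate the 6 quiescent markers, the 3 mesenchymal markers and Acta2. In WT 8 the quiescent markers other than Hand2 are below their mean and Des, Pdgfra and Pdgfrb above it, up to 1.81 for Pdgfra, while Acta2 is at -0.45.

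WT 8 was the lowest of the 6 libraries for 6 members (Lrat, Reln, Ngfr, Pth1r, Ecm1 and Acta2) and the highest for 3 (Des, Pdgfra and Pdgfrb). Over all tested genes it was lowest for 10.4% and highest for 59.4%. In whole liver, fewer cells of a type and less RNA per cell cannot be told apart, and transcripts of other cells differed between the same groups. The summed level of 11 cholangiocyte markers was 69.1 to 138 FPKM in Prdx1 C52S and 239 to 881 FPKM in WT, with the highest value in WT 8, and 10 of the 11 were lower without overlap, beside 36.7% of all tested genes. Most of this sum was Spp1, osteopontin, at 60.1 to 125 FPKM in Prdx1 C52S and 220 to 736 FPKM in WT, and without it the sum was 8.01 to 12.5 FPKM in Prdx1 C52S and 18.6 to 145 FPKM in WT. That of 15 portal fibroblast markers was 34.1 to 56.5 FPKM in Prdx1 C52S and 70 to 209 FPKM in WT, with 9 that were lower without overlap, beside the same 36.7%. That of 10 hepatocyte markers was 38478 to 41245 FPKM in Prdx1 C52S and 33007 to 37915 FPKM in WT. Of these 10, 5 were higher and 3 lower without overlap in FPKM, beside 6.09% and 36.7% of all tested genes. Their log2 fold changes were 8 positive and 2 negative, or 6 and 4 with library totals alone. That of 10 Kupffer cell and macrophage markers was 381 to 475 FPKM in Prdx1 C52S and 814 to 1126 FPKM in WT, but this list also holds Spp1, and its 10 genes were 5 positive (Marco, Timd4, Clec4f, Cd5l and Vsig4) and 5 negative on the log2 scale (median -0.16). Without Spp1 and Lyz2, lysozyme, its sum was 194 to 232 FPKM in Prdx1 C52S. In WT 6, 8 and 9 it was 294, 75.6 and 317 FPKM, so that the groups overlapped through WT 8 alone. In edgeR without WT 8 the 10 genes were 2 positive and 8 negative (median -0.49). In that fit 2 passed as lower and 0 as higher, beside 1.94% and 2.7% of all genes. The sums of 10 sinusoidal endothelial markers were 68.9 to 79.7 FPKM in Prdx1 C52S and 91.1, 43.4 and 90.9 FPKM in WT 6, 8 and 9. These groups too overlapped through WT 8 alone. Their log2 fold changes were 7 positive and 3 negative, or 4 and 6 without WT 8. In that fit 2 passed as lower and 0 as higher, beside 1.94% and 2.7% of all genes. The sums of 8 mesothelial markers overlapped (3.44 to 8.91 FPKM in Prdx1 C52S and 6.54 to 51.2 FPKM in WT). Krt19 and Krt7 stand in both this list and the cholangiocyte list. They gave 30.9 and 5.53 FPKM of the mesothelial sum in WT 8. Log2 fold changes of the 8 genes were 3 positive and 5 negative. The sum of 8 Schwann cell and nerve markers overlapped too (14.3 to 18.1 FPKM in Prdx1 C52S and 15.3 to 23.2 FPKM in WT). Most of that sum was Erbb3, named after its values were seen, at 12.5 to 16.5 FPKM in Prdx1 C52S and 12.7 to 21.1 FPKM in WT. The overlap of the sum therefore says little about the other genes of that list. Of its 8 genes, 1 was higher and 1 lower without overlap, beside 6.09% and 36.7% of all tested genes. The higher one was Cdh19, named after its values were seen. It was at 0.0688 to 0.0926 FPKM in Prdx1 C52S and 0 to 0.065 FPKM in WT. The lower one was Mbp, at 0.807 to 1.11 FPKM in Prdx1 C52S and 1.31 to 2.93 FPKM in WT. No marker of these lists was at 0 in all libraries, and the part of these cells in the members' differences was not tested.

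**Figure D4:**
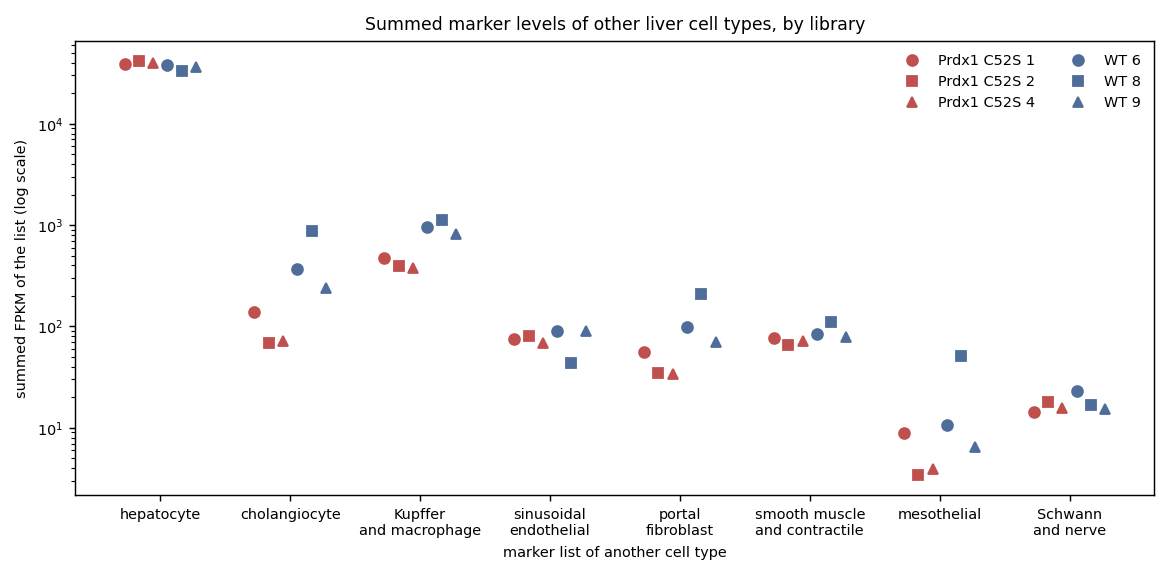
Summed FPKM of marker lists of other liver cell types (y axis, log scale) in each library (red for Prdx1 C52S, blue for WT). Cholangiocyte, macrophage, portal fibroblast and contractile sums are lower in every Prdx1 C52S library, and WT 8 has the highest cholangiocyte sum, 881 FPKM. Spp1 stands in both the cholangiocyte and the macrophage sum and gives 736 FPKM of each in WT 8. Of the 10 macrophage genes, 5 have positive log2 fold changes with all 6 libraries and 2 without WT 8.

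Other genes of stellate cells followed both directions. Of 25 further stellate cell genes, all tested, 14 had positive and 11 negative log2 fold changes, with a median of 0.06 beside -0.03 over all genes. The split was 11 and 14 without WT 8 (median -0.04) and 7 and 18 with library totals alone (median -0.24), and in FPKM 4 were higher and 10 lower without overlap, beside 6.09% and 36.7% of all genes. In edgeR with all 6 libraries 0 passed over all genes tested, and at an unadjusted p under 0.05, 3 were higher and 6 lower, beside 11.5% and 14.8%. The genes with the smallest p were Steap4, a metalloreductase (log2 fold change -1.28, SE 0.26, edgeR adjusted p = 0.0798), Adamtsl2, a matrix protein that binds latent TGF-beta binding protein (-1.98, SE 0.40), and Cygb, the globin of stellate cells (-1.05, SE 0.31). Cygb was at 8.16, 5.32 and 5.49 FPKM in Prdx1 C52S 1, 2 and 4, against 14.3, 26.2 and 9.28 FPKM in WT 6, 8 and 9. Without WT 8, 3 of the 25 passed as higher and 1 as lower, beside 2.7% and 1.94% of all genes. The higher ones were Vipr1, a receptor of vasoactive intestinal peptide (log2 fold change 0.64 in that fit), Angptl6 (1.12) and the collectin Colec10 (0.86), and the lower one was Steap4 (-1.48). Vipr1, Angptl6 and Colec10 were named after their values were seen, as were those that follow. Vipr1 was at 6.32, 6.74 and 6.14 FPKM in Prdx1 C52S 1, 2 and 4 and at 5.11, 2.8 and 4.29 FPKM in WT 6, 8 and 9, with WT 8 lowest, as for Ecm1. Colec10 was at 6.57, 8.56 and 6.3 FPKM in Prdx1 C52S 1, 2 and 4 and at 4.25, 0.0459 and 4.74 FPKM in WT 6, 8 and 9, almost undetected in WT 8. Tcf21, a transcription factor of mesenchymal cells, was at 2.66, 2.13 and 2.71 FPKM in Prdx1 C52S, against 5.88, 7.96 and 2.98 FPKM in WT, without overlap, as for Hand2.

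Myofibroblast genes apart from Acta2 were mostly lower. Of 30 such genes 29 were tested, 24 had negative log2 fold changes, with a median of -0.80 over all 6 libraries, or -0.71 once WT 8 was left out. None passed over all genes tested in edgeR with all 6 libraries. At an unadjusted p under 0.05 in that fit, 18 were lower and 1 higher (14.8% and 11.5% of all genes). DESeq2 called 16 lower (9.1% of all genes). This list, like the others, was chosen with earlier results of these data known, so that its counts are no independent test. The genes with the smallest p were vimentin, Vim (log2 fold change -0.76, edgeR adjusted p = 0.0790), the collagen chain Col6a3 (-1.60) and the matrix glycoprotein Sparc (-0.86). Sparc was at 22.2, 18.1 and 24.5 FPKM in Prdx1 C52S 1, 2 and 4 and at 49.5, 65.8 and 31.8 FPKM in WT 6, 8 and 9. Its groups did not overlap, unlike those of Acta2. Without WT 8, Mgp (log2 fold change -2.07) and Ltbp2 (-1.33) passed as lower, beside 1.94% of all genes. Both were named after their values were seen, and in WT 8 Mgp reached 21.6 FPKM, against 3.06 and 3.03 FPKM in the other WT libraries.

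Genes of the contractile apparatus lay between these lists. Of 20 smooth muscle and contractile genes 17 were tested, 4 had positive and 13 negative log2 fold changes, the median was -0.29, and 0 passed in edgeR. At an unadjusted p under 0.05, 1 was higher and 5 lower, beside 11.5% and 14.8% of all genes tested. Tropomyosin 1, Tpm1, was at -0.46, caldesmon, Cald1, at 0.39, and the actin-responsive coactivator Mrtfa at -0.37 on the log2 scale. Tagln, a smooth muscle gene that often accompanies Acta2 and that stands in both lists, was named after its values were seen. It was at 6.01, 5.08 and 6.37 FPKM in Prdx1 C52S 1, 2 and 4 and at 6.13, 4.49 and 7.17 FPKM in WT 6, 8 and 9, and overlapped as Acta2 did.

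Portal fibroblasts are another source of liver myofibroblasts. Of 14 of their genes tested, 13 had negative log2 fold changes, with a median of -1.14, and 0 passed the adjusted threshold in edgeR. At an unadjusted p under 0.05, 10 were lower and 1 higher, beside 14.8% and 11.5% of all genes tested. Entpd2, an ectonucleotidase of portal fibroblasts, was at 3.73, 3.34 and 3.3 FPKM in Prdx1 C52S 1, 2 and 4 and at 7.1, 10.8 and 5.69 FPKM in WT 6, 8 and 9 (edgeR log2 fold change -0.86, SE 0.17, adjusted p = 0.0757). It passed as lower when WT 8 was left out (-0.69 in edgeR, adjusted p = 0.043). Dermatopontin, Dpt, a small matrix protein, had a log2 fold change of -1.89. Pdgfra is carried by these fibroblasts too. Its WT libraries stood in the same order as those of Entpd2, with WT 8 highest, as for 59.4% of all tested genes. In Prdx1 C52S the orders differed, and the part of these fibroblasts in the level of Pdgfra was not tested.

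**Figure D5:**
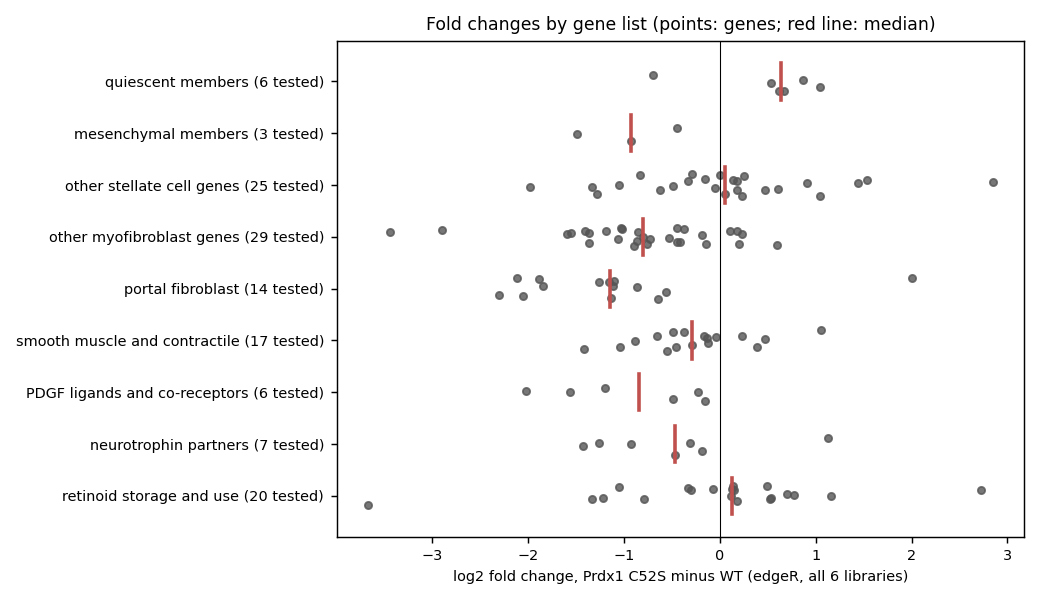
Log2 fold changes (x axis, Prdx1 C52S minus WT, edgeR, all 6 libraries) of the tested genes of 9 lists; each point is a gene, and the red line is the median of the list. The quiescent markers have a median of 0.64, the other stellate cell genes 0.06, and the myofibroblast and portal fibroblast genes -0.80 and -1.14.

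Ligands of the member receptors were compared as well. All 6 genes of PDGF ligands and related receptors were negative in edgeR (median log2 fold change -0.84). Without WT 8 the median was -0.55 and Pdgfa was positive, at 0.16. None passed in edgeR, and 3 were lower at an unadjusted p under 0.05, beside 14.8% of all genes tested. These were the receptor-like gene Pdgfrl (-1.19) and the ligands Pdgfb (-1.57) and Pdgfd (-2.02). Pdgfb, a ligand of both receptors, was at 1.01, 0.877 and 0.964 FPKM in Prdx1 C52S 1, 2 and 4 and at 2.39, 7.41 and 1.27 FPKM in WT 6, 8 and 9. Its log2 fold change was -0.75 without WT 8. Pdgfra, Pdgfrb, Pdgfb and Pdgfd were lower in every Prdx1 C52S library, as were 36.7% of all tested genes in FPKM. All of these were highest in WT 8, as were 59.4% of all tested genes. Pdgfa, Pdgfc and the related receptor Nrp1 overlapped between the groups, and Nrp1 was highest in WT 6.

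Among neurotrophin genes, the ligands and partner receptors of Ngfr, neurotrophin 3 (Ntf3) was at 0.432, 0.247 and 0.309 FPKM in Prdx1 C52S 1, 2 and 4, against 1.48, 0.915 and 0.52 FPKM in WT 6, 8 and 9. Its groups did not overlap, with a log2 fold change of -1.26 (SE 0.47, adjusted p = 0.149 in edgeR). Of 7 neurotrophin genes tested, 6 had negative log2 fold changes, 2 were lower at an unadjusted p under 0.05 (14.8% of all genes), and 0 passed in edgeR. Among partners of Pth1r, all 4 tested genes were negative and lower at an unadjusted p under 0.05, beside 14.8% of all genes tested. Arrb2, an arrestin that ends receptor signalling, was at -0.78 (SE 0.10, edgeR adjusted p = 0.0553), Ramp2 at -0.82 and Arrb1 at -0.66. Without WT 8 Arrb2 and Arrb1 passed as lower, beside 1.94% of all genes, and arrestins serve many receptors. Of the reelin receptor genes, Vldlr was at 1.27, 1.04 and 0.632 FPKM in Prdx1 C52S, against 0.419, 0.619 and 0.617 FPKM in WT (log2 fold change 1.12, SE 0.27, edgeR adjusted p = 0.0894), and the adaptor Dab1 was at -2.30 on the log2 scale.

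The genes whose profiles over the 6 libraries were nearest to Lrat, Pdgfrb and Acta2 were taken among 10621 others with a mean of at least 1 FPKM. Nearness was the largest gap in any library between centred log2 CPM, and the libraries share their depth and composition. Aldh3a2 (largest gap 0.10), Mgll, Il1a, Pdilt and Pcp4l1 were nearest to Lrat. Among members, Reln ranked 32 of 10621, Ecm1 63, Ngfr 102, Acta2 321, Pth1r 698, Hand2 8837, Des 9423, Pdgfrb 10128 and Pdgfra 10408 in nearness to Lrat. By this measure Acta2 (largest gap 0.62) stood nearer to Lrat than the quiescent markers Pth1r (0.79) and Hand2 (1.79) did. These largest gaps all fell in WT 8, where Lrat was far below all others. Their order therefore describes that library and not likeness over all 6. Lhfp, St3gal2, Col4a2, Rtl8c and Lsp1 were nearest to Pdgfrb, with largest gaps of 0.10 to 0.11. Des ranked 568, Pdgfra 811 and Hand2 1233 in nearness to Pdgfrb. Dio1 (0.21), Hdc, Procr, Tlr12 and Gatc were nearest to Acta2, whose gaps were wider. Among members, Reln stood nearest to Acta2, at rank 621, and Pdgfrb stood at rank 10069.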

How the data were processed

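Poly(A) RNA of whole liver was sequenced with paired ends in 3 Prdx1 C52S and 3 WT libraries. The authors deposited FPKM and an estimated count for each gene and library. Tools listed in the submitters' processing notes, whose roles are not given there, are StringTie 1.3.4d, HISAT2 2.0.4, cutadapt 1.9, UMI-tools, edgeR and DESeq2. They name the build mm9, but 25866 of the 29642 identifiers found in GENCODE M21 have the identical GRCm38 coordinates, so that GRCm38 is used here. The deposited estimated counts peak at 4 among low values (6204 values at 4, beside 3538 at 3 and 1965 at 5), about 4 per fragment, and dividing them by 4 is among the alternatives. Use of strand and of molecular identifiers in counting is not given in the sources used here.

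After rounding to whole numbers, estimated counts entered edgeR 4.0.16 under R 4.3.3 (filterByExpr, TMM, robust quasi-likelihood F-test, two-sided, no covariate) over 18931 genes with Benjamini-Hochberg adjustment and a threshold of 0.05. TMM factors were 0.883 to 0.92 in Prdx1 C52S, and 1.04, 1.28 and 1.03 in WT 6, 8 and 9. Alternatives were RLE factors, library totals, no filter, DESeq2 1.42.0, limma 3.58.1 on log2(FPKM + 1) and log2(FPKM + 0.1), counts divided by 4, voom with quality weights, and leaving out each library. Contrasts and ratios used log2(FPKM + 0.1). No libraries were identical.

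The 10 members and the gene lists were chosen with earlier results of these data known. Named genes are the members, the 3 genes of smallest p in each list (2 for markers of other cell types, of which most are given as sums) at 0.1 FPKM or more in a group, and 5 nearest genes each for Lrat, Pdgfrb and Acta2; others are said to be named after their values were seen. Some genes that this rule names are not reported here. Promoter sequences were found in RefSeq for 9 of 10 members.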

Additional observations from a re-analysis of the deposited data

How the results depend on the processing

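The signs of the log2 fold changes of all 10 members held under all 14 alternatives, and 0 members passed in the main edgeR fit with all libraries. For Acta2 the value was 0.10 without WT 8 (SE 0.27), where its ratio of mean FPKM turned to 0.94. Members past adjusted p 0.05 were 6 with DESeq2, 3 with voom and library quality weights, and between 0 and 3 when a library was left out, the 3 being without WT 8. Genes past that threshold, higher and lower, were 0 and 0 with TMM or RLE factors, 35 and 125 with library totals alone, 105 and 91 with no filter, 1399 and 1723 with DESeq2, 39 and 94 with limma on log2(FPKM + 1), 59 and 221 with limma on log2(FPKM + 0.1), 43 and 40 with counts divided by 4, and 1023 and 1006 with voom. Leaving out a library gave between 0 and 522 higher and between 0 and 375 lower, the most without WT 8, and 63 and 69 without WT 9. The common biological coefficient of variation was 0.31 with all libraries and 0.245 without WT 8. The difference between groups in log2 Pdgfra over Pdgfrb was -0.43 and was -0.10 with a pseudocount of 1 FPKM, which is close to the level of Pdgfra. The contrast of quiescent against mesenchymal markers ran from 0.86 without WT 8 to 1.75 without WT 9, and that against Acta2 from 0.03 without Prdx1 C52S 2 to 0.44 without Prdx1 C52S 4. No paired analysis was possible because the groups share no replicate number. Groups of 3 libraries limit every value here, and the cause of the difference of WT 8 was not tested.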

Other observations

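Genes that store, carry or oxidise retinoids, the vitamin A compounds that Lrat esterifies, went both ways. Of 20 tested, 12 had positive and 8 negative log2 fold changes (median 0.13 with all libraries, and close to 0 without WT 8), and 0 passed in edgeR with all 6 libraries. At an unadjusted p under 0.05, 6 were higher and 5 lower, beside 11.5% and 14.8% of all genes tested. Rdh10, which oxidises retinol, was at 6.1, 6.38 and 6.21 FPKM in Prdx1 C52S and at 4.74, 5 and 5.9 FPKM in WT (log2 fold change 0.54, SE 0.15 in edgeR). Pnpla3, a lipase with activity on retinyl esters that hepatocytes also make, had a log2 fold change of 2.73 (edgeR adjusted p = 0.0553). Without WT 8, Pnpla3 (2.74) and the retinaldehyde dehydrogenase Aldh1a1 (0.81, named after its values were seen) passed as higher, beside 2.7% of all genes.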
